A study of Mus musculus with 4 samples.

Results

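Smc5 encodes SMC5, a long coiled-coil ATPase of the SMC family. Its 82 CLIP-seq peaks in fibroblasts cultured from mouse embryos (MEFs) are described here. A peak is a short stretch of RNA where fragments bound by a protein piled up. A peak was counted as one of Smc5 when the transcript in its deposited name was a RefSeq transcript of Smc5. By this rule 46 of 50983 SRSF1 peaks and 36 of 56336 SRSF2 peaks belong to Smc5, 82 of 107319 in all. All 82 carried the transcript NM_153808 and lay on the minus strand of chromosome 19 (mm9), and no peak of another transcript or cluster lay between them on either strand. Smc5 was chosen by its number of SRSF1 peaks, one of the highest among named genes, so its peak numbers are given as a description and without a test.

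The samples were an SRSF1 library from SRSF1 tet-repressible MEFs and an SRSF2 library from SRSF2 tet-repressible MEFs, both kept without tetracycline and both precipitated with the same antibody against the HA tag. The protein and the cell line therefore cannot be told apart. Further SRSF1 libraries, made after siRNA treatment (control or SRSF2-directed), were not analysed here. With 1 library for each protein there is no replicate error, and no test between the proteins was made. Ranges in parentheses after a share are its 95% binomial interval by the exact Clopper-Pearson method. They hold counting error alone and treat neighbouring peaks as independent. Read depth is unknown.

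SMC5 pairs with SMC6 in a ring-shaped complex that embraces DNA and acts in recombination repair and in the restart of stalled replication forks. SRSF1 and SRSF2 are SR proteins, which bind pre-mRNA through RNA recognition motifs, often at exonic enhancers, and recruit the splicing machinery to nearby splice sites. CLIP-seq freezes such contacts with ultraviolet light before the tagged protein is precipitated.

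The bound part of Smc5 spanned 64.99 kb, read here from the 5′ end, which is the high coordinate on the minus strand. The first base covered by any peak was 23348243, where the first SRSF1 peak (23348180 to 23348243, score 13) and the first SRSF2 peak (23348219 to 23348243, score 14) shared their 5′ end. The last SRSF1 peak lay at 23283377 to 23283406 with a score of 11. The last SRSF2 peak lay at 23283252 to 23283265 with a score of 8. Both proteins thus covered nearly the same stretch of the gene. Peaks took up little of it: 1442 nt for SRSF1 and 873 nt for SRSF2, together 1727 nt or 2.66% of the span.

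Listed peaks of both proteins were dense at the 3′ end of the span and thinner in the middle. Cutting the span into 5 equal parts from 5′ to 3′, SRSF1 had 12, 5, 5, 7 and 17 peaks. SRSF2 had 7, 3, 4, 8 and 14 peaks. The last part held 37.0% of the SRSF1 peaks (23.2 to 52.5) and 38.9% of the SRSF2 peaks (23.1 to 56.5). The first part held 26.1% of the SRSF1 peaks (14.3 to 41.1) and 19.4% of the SRSF2 peaks (8.19 to 36.0). In both lists the last part was the fullest and the second and middle parts the emptiest, and the intervals of the proteins overlapped in each part.

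**Figure D1:**
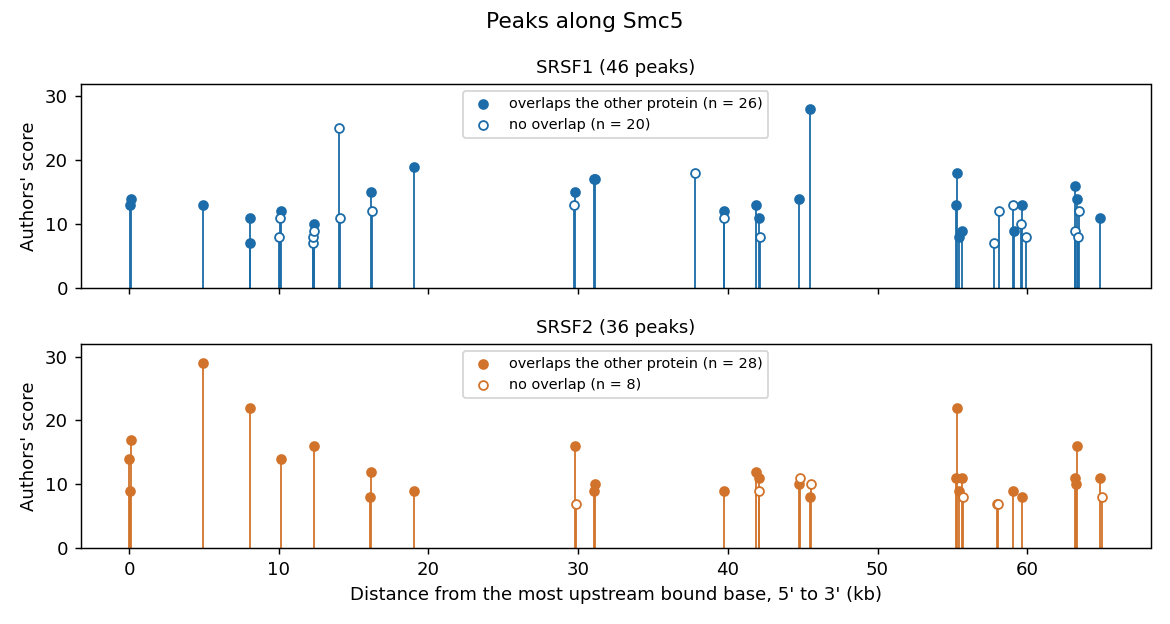
Position of each peak of Smc5 (x axis, distance in kb from the most upstream bound base) against the score that the authors gave it (y axis), with SRSF1 above and SRSF2 below. Filled points overlap a peak of the other protein (26 of 46 SRSF1 peaks and 28 of 36 SRSF2 peaks), and peaks of both proteins stand in the same narrow groups along the 64.99 kb.

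Peaks came in small groups. Joining peaks of both proteins at gaps of at most 100 nt gave 26 sites, numbered here from the 5′ end, with a median length of 82 nt (11 to 309 nt). The gaps between sites had a median of 1935 nt. Of the 26 sites, 21 held both proteins, 4 held SRSF1 alone and 1 held SRSF2 alone. The 21 shared sites held 76 of the 82 peaks, and in 20 of them, all but site 20, peaks of the proteins overlapped. For comparison, a coding Smc5 transcript in GENCODE M21 has 25 exons with a median length of 133 nt and 24 introns with a median of 1984 nt. That annotation is on GRCm38, another build than mm9, so no peak was assigned to an exon, an intron or an untranslated region.

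The longest stretches without a peak of either protein were inside the gene. The longest, 10648 nt, separated site 8 from site 9 (from 23329170 down to 23318521). The next, 9650 nt, separated site 16 from site 17 (23302661 to 23293010), and the third, 6686 nt, separated site 10 from site 11 (23317125 to 23310438). The SRSF2 list skips 6 of its peak numbers, 30 to 35, between its peak in site 8 and the nearest one in site 9. SRSF2 peaks that had been numbered but not listed may therefore lie in the 3′ part of site 8, between these sites or in the 5′ part of site 9. Neither list skips a number across the second or the third gap.

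The sites with most peaks were sites 24, 17, 1 and 5. Site 24 (23284772 to 23285080) held 5 SRSF1 peaks and 3 SRSF2 peaks over 309 nt, the longest site of the gene. Both its ends carried SRSF1, but the SRSF2 peaks stood only in its 5′ part, and the SRSF1 peaks at 23284810 to 23284832 and 23284772 to 23284801 had no SRSF2 midpoint within 100 nt. Site 17 (23292807 to 23293010) held 3 peaks of each protein, and each of them overlapped one of the other protein. Site 1, at the 5′ end (23348127 to 23348243), held 2 SRSF1 peaks and 3 SRSF2 peaks. There a single SRSF1 peak of 64 nt lay over SRSF2 peaks of 25 and 24 nt. Site 5 (23335856 to 23335942) held 4 SRSF1 peaks and 1 SRSF2 peak.

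**Figure D2:**
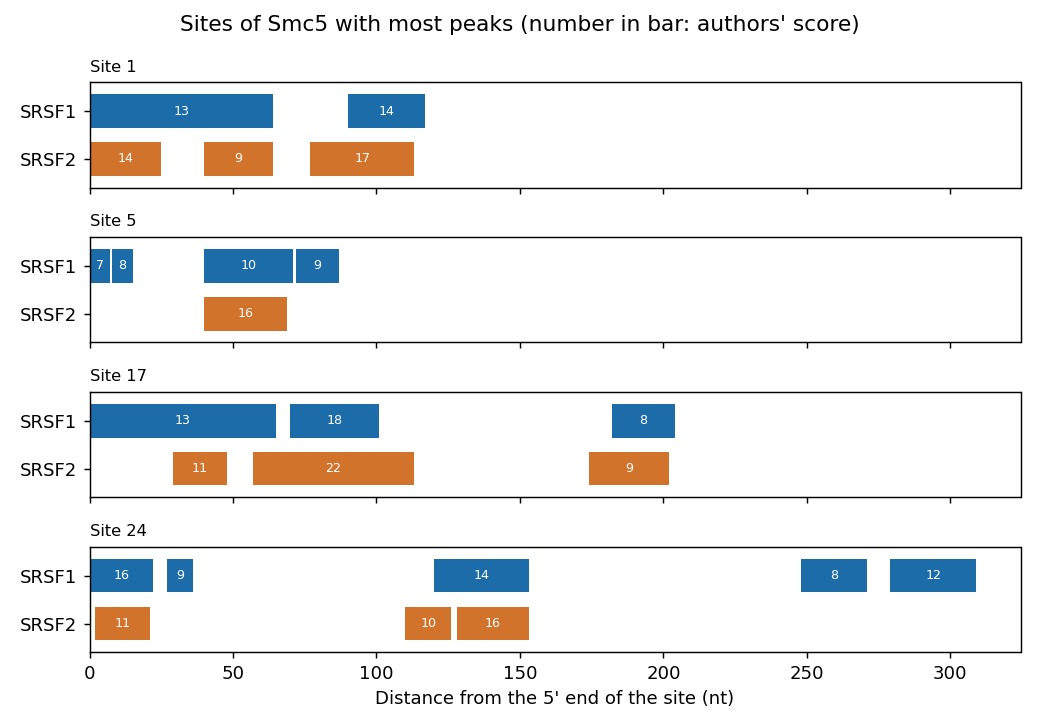
The 4 sites of Smc5 with most peaks, drawn to scale from the 5′ end of each site (x axis, nt), with SRSF1 peaks above SRSF2 peaks and the authors' score written in each bar. SRSF2 bars lie under SRSF1 bars at most positions, while the last 2 SRSF1 peaks of site 24 have no SRSF2 peak beneath them.

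Overlap was counted from 1 nt shared on the same strand, and it was common for both proteins. Of the SRSF1 peaks 26 of 46 (56.5%, 41.1 to 71.1) were overlapped by an SRSF2 peak, where the background over the whole SRSF1 list was 38.7%. Of the SRSF2 peaks 28 of 36 (77.8%, 60.8 to 89.9) were overlapped by an SRSF1 peak, where the background over the whole SRSF2 list was 35.2%. Both intervals lay above their background, but they treat neighbouring peaks as independent. Over 160 named genes with at least 10 peaks of each protein, the median overlapped share was 50% for SRSF1 and 45.2% for SRSF2. The SRSF1 interval held its median, and the SRSF2 interval lay above its own. The peaks of Smc5 also had higher median scores and widths than the whole lists, though the SRSF2 width differed little. SRSF1 peaks in Smc5 had a median score of 12 (7 to 28) and a median width of 30.5 nt (7 to 68), against 8 and 19 nt over the list. SRSF2 peaks had a median score of 10 (7 to 29) and a median width of 21 nt (6 to 101), against 8 and 19 nt. Among 160 named genes with at least 10 peaks of each protein, Smc5 was 1 of 31 with an SRSF1 median score of at least 12. It was 1 of 67 with an SRSF2 median score of at least 10.

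Score and width moved with the overlap in Smc5. Overlapped SRSF1 peaks had a median width of 31.5 nt, against 23.5 nt for the others, and overlapped SRSF2 peaks 23.5 nt, against 15 nt. The lists were therefore reweighted to the mix found in Smc5, using 7 classes of score and 6 of width. All SRSF1 peaks weighted in this way gave an overlapped share of 60.9%, which lies within the interval of the SRSF1 share in Smc5. All SRSF2 peaks weighted in the same way gave 44.1%, which lies below the interval of the SRSF2 share in Smc5. For SRSF1, then, the overlapped share in Smc5 was near that of peaks of like score and width elsewhere, while for SRSF2 it was above it, in both cases as a description. The weighting took a peak's own score and width, not the number or width of nearby peaks of the other protein. Smc5 was chosen with earlier results known, and it has many SRSF1 peaks, which an SRSF2 peak can meet. The part of this choice and of these many peaks in the SRSF2 share was not tested. RNA abundance of Smc5 was not measured in these files, and its part in the overlap was not tested.

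Distances between the proteins were compared in the same way. An SRSF2 midpoint lay within 50 nt of 31 of 46 SRSF1 peaks (67.4%, 52.0 to 80.5), where the background was 48.6%. An SRSF1 midpoint lay within 50 nt of 30 of 36 SRSF2 peaks (83.3%, 67.2 to 93.6), where the background was 45.5%. With the lists weighted to the scores and widths of Smc5, these backgrounds were 68.0% for SRSF1, close to its share in Smc5, and 54.0% for SRSF2, below the interval of its share. The limits of the weighting and of the choice of the gene hold here too. The median distance was 12.3 nt for SRSF1 peaks and 7.75 nt for SRSF2 peaks, so the typical neighbour was closer than one peak width. All 36 SRSF2 peaks had an SRSF1 midpoint within 133 nt. The farthest SRSF1 peak was 1872 nt from an SRSF2 midpoint.

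**Figure D3:**
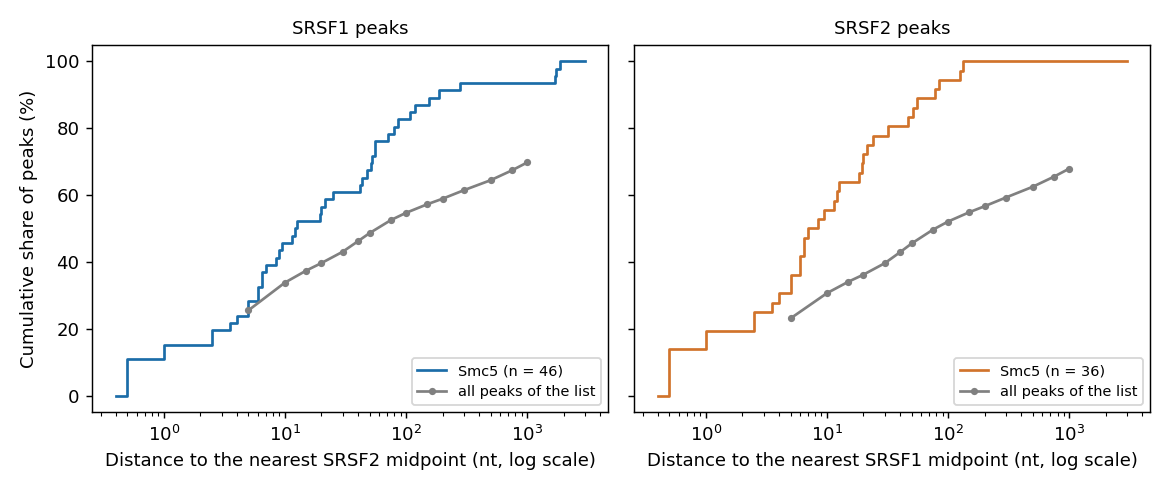
Cumulative share of peaks (y axis, %) by distance to the nearest midpoint of the other protein (x axis, nt, log scale), for SRSF1 peaks on the left and SRSF2 peaks on the right; coloured lines are Smc5 and grey lines all peaks of that list. At 50 nt the lines of Smc5 stand at 67.4% for SRSF1 and 83.3% for SRSF2, above the grey lines at 48.6% and 45.5%, which are not weighted by score or width.

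The overlapping peaks formed 30 pairs, made of 26 SRSF1 peaks and 28 SRSF2 peaks. In 17 pairs the SRSF2 peak lay wholly inside the SRSF1 peak, and in 6 pairs the SRSF1 peak lay wholly inside the SRSF2 peak. Midpoints were within 10 nt of each other in 21 of 30 pairs, with a median distance of 6.25 nt and a maximum of 52.5 nt. The SRSF2 midpoint was downstream of the SRSF1 midpoint in 13 pairs and upstream in 17, so neither side prevailed. Of the 1442 nt under SRSF1 peaks 40.8% were also under SRSF2 peaks. Of the 873 nt under SRSF2 peaks 67.4% were also under SRSF1 peaks.

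Ranked by the smaller of both scores, the strongest pair of Smc5 was in site 17, with the SRSF1 peak at 23292910 to 23292940 (score 18) inside the SRSF2 peak at 23292898 to 23292953 (score 22). The second was in site 9, with SRSF1 at 23318414 to 23318466 (score 15) and SRSF2 at 23318415 to 23318441 (score 16). The third was in site 1, with SRSF1 at 23348127 to 23348153 (score 14) and SRSF2 at 23348131 to 23348166 (score 17). These 3 sites lie far apart, centred 55.3, 29.8 and 0.0585 kb from the first bound base. Ranks 4 to 10 fell in sites 24, 1, 2, 17, 7, 13 and 4, with smaller scores of 12 to 14. The 10 strongest pairs were thus spread over 8 sites, out to site 24 at 63.3 kb.

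The highest scores of each protein were mostly at different sites. For SRSF1 the highest was 28 in site 16 (23302710 to 23302741), then 25 in site 6 (23334176 to 23334224) and 19 in site 8 (23329170 to 23329226). A score of 18 was found in site 11 (23310375 to 23310438) and in site 17. These SRSF1 peaks lie between 14.0 and 55.3 kb from the 5′ end. For SRSF2 the highest was 29 in site 2 (23343246 to 23343346), a peak of 101 nt and the widest in the gene. A score of 22 followed in site 3 (23340169 to 23340202) and in site 17, then 17 in site 1 and 16 in sites 5, 9 and 24. Site 17 was the only one to hold one of the 5 highest scores of both proteins, counting ties.

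Standing within each list shows such differences in both directions. In site 2 the SRSF1 peak (23343281 to 23343312, score 13) scored above 84.2% of its list, and the SRSF2 peak around it above 98.3% of its own. In site 3 the SRSF1 peaks scored above 74.9% and 34.8% of their list, and the SRSF2 peak that covers both above 96.0% of its own. The reverse was seen in site 16, where the SRSF1 peak scored above 98.6% of its list and the SRSF2 peak inside it (23302718 to 23302735, score 8) above 39.5% of its own. Of the summed score of each list in Smc5, the first of the 5 parts held 21.5% for SRSF1 and 28.8% for SRSF2. The second part held 14.3% for SRSF1 and 6.90% for SRSF2, the middle part 14.0% and 10%, and the next part 16.96% and 19.05%. The last part held nearly equal shares, 33.2% for SRSF1 and 35.2% for SRSF2. The sources used here do not say what the score measures. Scores were therefore ranked and summed within a list only, except where the smaller score of a pair orders the pairs. The summed shares treat the score as additive, which was not tested.

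Across the 30 pairs of Smc5 the scores of the proteins did not rise together (Spearman rho -0.19). This is a description without a p-value, because some pairs share a peak and all come from the same 2 libraries. Over all 20654 overlapping pairs of the lists rho was 0.62, but those pairs come from many genes. Whether differences in coverage between genes play a part in this was not tested. Among the 13 named genes with at least 20 pairs, rho had a median of 0.23 and ran from -0.19 to 0.61, with Smc5 the lowest. Xpo1 had a rho of 0.17 over 28 pairs and Map4k4 of 0.19 over 23 pairs. Wider peaks had higher scores in both lists (rho 0.76 over the 46 SRSF1 peaks and 0.80 over the 36 SRSF2 peaks of Smc5).

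**Figure D4:**
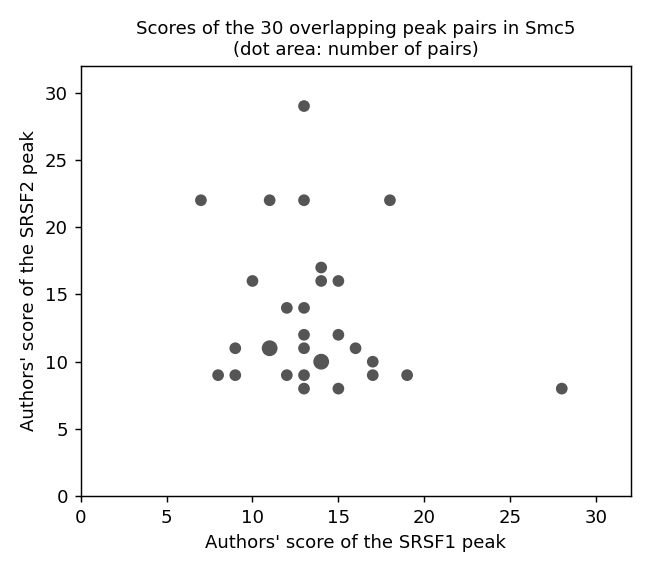
Authors' score of the SRSF1 peak (x axis) against that of the SRSF2 peak (y axis) for the 30 overlapping pairs of Smc5; a larger dot stands for several pairs. The SRSF1 peak with a score of 28 pairs with an SRSF2 score of 8, and the SRSF1 peak inside the SRSF2 peak with a score of 29 has a score of 13.

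Some SRSF1 peaks stood alone. With no SRSF2 midpoint within 100 nt there were 8 SRSF1 peaks, in sites 6, 11, 24, 4, 23 and 19. Site 6 held a pair of SRSF1 peaks, 23334176 to 23334224 with a score of 25 and 23334141 to 23334170 with a score of 11, and the nearest SRSF2 midpoint was 1688 nt away. Site 11 held 1 SRSF1 peak of 64 nt with a score of 18, 1872 nt from the nearest SRSF2 midpoint. Sites 6 and 11 thus held 2 of the 5 highest SRSF1 scores of the gene. The other sites with SRSF1 alone were site 19 (23290458 to 23290468, score 7) and site 23 (23288321 to 23288337, score 8).

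The deposited lists skip some of the numbers that the authors gave to peaks along Smc5, 8 of 54 for SRSF1 and 10 of 46 for SRSF2. Within Smc5 the numbers followed the coordinate without exception, so a skipped number can be placed between its listed neighbours. At sites 6, 11, 19 and 23 the flanking SRSF2 peaks carried consecutive numbers, so the authors numbered no SRSF2 peak there. Of the 20 SRSF1 peaks without an overlap only 2 lay where the SRSF2 list skips numbers, at 23318477 to 23318521 in site 9 and at 23308466 to 23308499 in site 12. Of the 8 SRSF2 peaks without an overlap 2 lay where the SRSF1 list skips a number, in sites 9 and 14.

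SRSF2 peaks far from SRSF1 were few and weak. Only 2 had no SRSF1 midpoint within 100 nt, at 23290272 to 23290277 (score 7, 124.5 nt away) and at 23283252 to 23283265 (score 8, 133 nt away). The second of these is site 26, the one site with SRSF2 alone and the last of the gene. Peaks without an overlap had a median score of 10.5 (7 to 25) for SRSF1 and 8 (7 to 11) for SRSF2. Peaks with an overlap had a median score of 13 (7 to 28) for SRSF1 and 11 (8 to 29) for SRSF2.

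Listed peaks on the same strand went on beyond the last Smc5 peak, in a unit listed as nongenic. Within 3 kb downstream it held 4 SRSF1 peaks with scores of 5 to 7 and 6 SRSF2 peaks with scores of 5 to 9, of which 2 of each overlapped. The nearest, an SRSF2 peak at 23283141 to 23283166, ended 85 nt from the last Smc5 peak. Their scores were at or below the lower end of the range in Smc5, apart from the SRSF2 peak with a score of 9. Upstream of the first Smc5 peak no peak on the same strand lay within 3 kb. Whether these downstream peaks belong to Smc5 RNA cannot be read from the list.

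By numbers of peaks, the genes most like Smc5 among 528 named genes with at least 10 peaks were Xpo1, Med13, Map4k4, Flna and Usp32, by distance of both counts on the log2(count + 1) scale. In Smc5, SRSF1 accounted for 56.1% of the peaks, a share that may depend on how the gene was chosen. Xpo1, a nuclear export receptor, had 43 SRSF1 and 35 SRSF2 peaks at a distance of 0.10. Med13, a subunit of the Mediator kinase module, had 44 and 40 at a distance of 0.16. Map4k4, a kinase gene, had 34 of each at 0.43, Flna, the actin crosslinker filamin A, 45 and 51 at 0.49, and Usp32, a ubiquitin protease, 34 and 47 at 0.57.

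Of these genes, Xpo1 was nearest to Smc5 in both overlapped shares. Its overlapped shares were 58.1% for SRSF1 (42.1 to 73.0) and 74.3% for SRSF2 (56.7 to 87.5), and it had 26 sites, as Smc5 did, within 40.5 kb. Med13 had 40.9% for SRSF1 (26.3 to 56.8) and 45.0% for SRSF2 (29.3 to 61.5), and its SRSF2 interval barely met that of Smc5. Map4k4 had 58.8% for SRSF1 (40.7 to 75.4) and 64.7% for SRSF2 (46.5 to 80.3). In Flna and Usp32 the larger share was that of SRSF1, which had fewer peaks there than SRSF2. Overlapped peaks of SRSF1 and SRSF2 were of similar number, 31 and 28 in Flna and 23 and 25 in Usp32. The balance of the shares thus goes with the peak counts. Flna had 68.9% for SRSF1 (53.4 to 81.8) and 54.9% for SRSF2 (40.3 to 68.9), and Usp32 had 67.6% (49.5 to 82.6) and 53.2% (38.1 to 67.9). Among 160 named genes with at least 10 peaks of each protein, the median overlapped share was 50% for SRSF1 and 45.2% for SRSF2. Smc5 was 1 of 60 genes with an SRSF1 share of at least 56.5%, and 1 of 9 with an SRSF2 share of at least 77.8%. With 1 library for each protein no test of these differences was made, and a high SRSF2 share is not particular to Smc5.

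**Figure D5:**
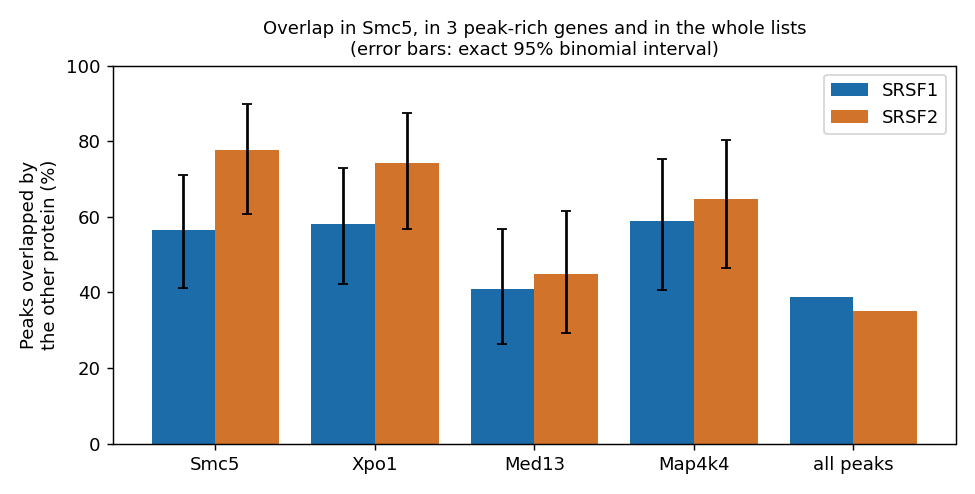
Share of peaks overlapped by a peak of the other protein (y axis, %) in Smc5, Xpo1, Med13, Map4k4 and the whole lists, with SRSF1 left of SRSF2 and error bars showing the exact 95% interval. The SRSF2 bar of Smc5 (77.8%) is above that of all peaks (35.2%), and its interval overlaps those of Xpo1, Med13 and Map4k4.

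Genes that work with SMC5 or in related complexes were looked up as a list of 35 symbols. Of these, 5 had a RefSeq-named unit with a peak, where the background over 21031 protein-coding genes with a curated RefSeq transcript was 10.2%. Because the 5 include Smc5, itself chosen with earlier results known, the count does not set the list apart from this background. The 5 were Smc5 and Slf2 of 9 genes of the SMC5-SMC6 complex and its partners, Wapl of 14 cohesin genes, and Mre11a and Nbn of 3 genes of the MRN complex. None of the 8 condensin genes had one, nor Smchd1. Most peaks of the series lie in units without a gene name, so a gene of the list without a value was not shown to be unbound. Smc6 is among those without a value.

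Slf2, which links the SMC5-SMC6 complex to damaged DNA and like Smc5 lies on chromosome 19, had 19 SRSF1 and 21 SRSF2 peaks (SRSF1 share 47.5%, 31.5 to 63.9), of which 12 and 12 overlapped. Wapl, which releases cohesin from chromosomes, had 24 SRSF1 and 25 SRSF2 peaks (49.0%, 34.4 to 63.7), with 14 and 13 overlapped. Mre11a, the nuclease that trims broken DNA ends, had 5 and 10 peaks with 2 and 3 overlapped, and Nbn, its partner in the sensing of breaks, had 5 of each with 3 of each overlapped. All 4 genes carried both proteins and had 10 to 49 peaks each, where the median over all 2155 named genes was 4. Their median scores for SRSF1 and SRSF2 were 12 and 11 in Slf2 and 8 and 8 in Wapl. In Mre11a they were 6 and 6 and in Nbn 5 and 6, below the median of 8 in both whole lists. Together the 4 genes had 53 SRSF1 and 61 SRSF2 peaks, of which SRSF1 made up 46.5% (37.1 to 56.1). Their overlapped shares were 58.5% for SRSF1 (44.1 to 71.9) and 50.8% for SRSF2 (37.7 to 63.9), where the backgrounds over the whole lists were 38.7% and 35.2%. Both intervals overlapped those of Smc5, and they pool the peaks of 4 genes. They also held the medians over the 160 named genes with at least 10 peaks of each protein, 50% for SRSF1 and 45.2% for SRSF2. These overlapped shares therefore do not set the 4 genes apart from other peak-rich genes.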

How the data were processed

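CLIP-seq peaks of HA-tagged SRSF1 and SRSF2 were measured in MEFs, with 1 library for each protein. The authors deposited 1 list per library, with position, name, strand and a score, and mm9 coordinates per the submitters' processing notes. Scores in the deposited lists are whole numbers from 4 upward. The sources used here name no aligner, peak caller or threshold and do not define the score. Coordinates are given 1-based. Symbols came from a RefSeq table of GRCm38.p6, used for names only. Exon and intron lengths are those of GENCODE M21. Peaks, overlaps, sites and intervals were computed with Python 3.11.15, pandas 2.3.3 and SciPy 1.17.1; the overlap counts were checked against bedtools 2.31.1 and on simulated data. Smc5, the gene list and the tests were chosen with earlier results of these data known. Peaks were named by a rule: the first and last of each protein, the 10 strongest pairs, the 5 highest scores, the 5 strongest lone peaks (no midpoint of the other protein within 100 nt), the 3 longest gaps and the 3 sites with most peaks, with ties kept. The gene list covers SMC5-SMC6, cohesin, condensin, the MRN complex and Smchd1. No sequence is shown, because no genome of the mm9 build was used here. Alternatives changed the overlap, distance, merging, score and site rules.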

Additional observations from a re-analysis of the deposited data

How the results depend on the processing

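All alternatives left the main values within their 95% intervals, or the count of sites within 1.5 times, except when the distance limit was set to 100 nt. That limit gave 82.6% for SRSF1 and 94.4% for SRSF2, in place of 67.4% and 83.3% at 50 nt; a wider limit can only add peaks. With at least 50% of the shorter peak shared, the overlapped shares were 56.5% and 75%. Merging peaks at gaps of at most 10 nt gave 68.6% and 78.8%, and lowered the SRSF1 share of peaks to 51.5%. Sites with both proteins numbered 23 of 33 when joined at 50 nt and 19 of 22 at 200 nt. The SRSF1 share over the SMC list, with Smc5 included, was 50.5%. It was 53.0% for scores at or above the median of each list, an alternative chosen after seeing the data. Without Smc5 and with all scores it was 46.5%. Of the 5 genes most like Smc5, 5 were the same with at least 20 peaks, and 4 when overlapped shares were added. No paired analysis was possible because each protein has 1 library. Read depth is unknown, and some numbered peaks are not listed.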
